A study of Mus musculus with 2 samples.

Results

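S-phase Gata6-low macrophages were peritoneal macrophages without a UMI of the large peritoneal macrophage genes Gata6, Garnl3, Tgfb2 and Ltbp1, and with transcripts of the DNA replication machinery. They were taken from the cells with at least 200 genes and at most 10% mitochondrial UMIs. A macrophage had at least 10 UMIs of C1qa, C1qb and C1qc per 10000. The Gata6 set had to sum to 0 UMIs, and the replication set of Mcm3, Mcm5, Mcm6, Hells and Uhrf1 to at least 5 raw UMIs. The mitotic set of Mki67, Top2a, Birc5, Ube2c, Cenpf and Nusap1 had to stay under 5 UMIs, Retnla under 10, and Cd79a with Cd3e at most at 2. The members were thus chosen by measured transcript counts. The criteria left 321 of 30733 cells, from 32080 barcodes, of which 174 of 16000 came from the Cd36-/- library and 147 of 14733 from the fl/fl library. Levels of the genes that the criteria use are therefore given as a description.

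Each library held peritoneal cells of a pool of 4 replicates, from mice 10 to 14 weeks old, which had been injected into the cavity with 1 mg of zymosan each and were sampled on day 3. The Cd36-/- mice carried LysM-Cre, a Cre recombinase expressed from the Lyz2 locus in myeloid cells, neutrophils included, with floxed Cd36, and the fl/fl mice carried floxed Cd36 alone. All animals had received zymosan, particles of yeast cell wall that set off a peritonitis, so there was no untreated group. The fl/fl label names no Cre, so an effect of losing Cd36 and one of Cre at Lyz2 cannot be told apart. With 1 library per group no difference between groups could be tested. Intervals below are exact 95% intervals that cover counting error alone, and differences between animals within a pool are not measured.

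A cell that divides first licenses its replication origins: Orc6, Cdc6 and Cdt1 load the Mcm2 to Mcm7 helicase on DNA, which the GINS proteins and Cdc45 later activate. Polymerases, the clamp Pcna and the ligase Lig1 then copy the strands, ribonucleotide reductase and thymidylate synthesis supply the nucleotides, and Uhrf1, Hells and Dnmt1 carry DNA methylation over to the new strand. Transcription of much of this machinery at the start of S phase is driven by E2F factors. Peritoneal macrophages comprise long-lived resident cells that depend on the transcription factor Gata6 and cells of monocyte origin that do not, and both kinds can divide in the cavity.

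The promoters of the 5 genes that chose the cells are shown because 4 of 5 carry the E2F word within their first annotated promoter and the remaining gene within its other one. The sequences are from RefSeq on GRCm38.p6, the patched form of the files' mm10 build, each with 250 bases before the start of the gene and 50 bases from it on, 5′ to 3′ on the strand of the gene. Capitals mark every match, on either strand, to TTTCCCGC, TTTGGCGC, TTTCGCGC or TTTGCCGC. Mcm3 lies at chr1:20820263-20820562 on the minus strand, Mcm5 at chr8:75109259-75109558 on the plus strand, Mcm6 at chr1:128359656-128359955 on the minus strand, Hells at chr19:38930740-38931039 on the plus strand and Uhrf1 at chr17:56304063-56304362 on the plus strand.
Mcm3: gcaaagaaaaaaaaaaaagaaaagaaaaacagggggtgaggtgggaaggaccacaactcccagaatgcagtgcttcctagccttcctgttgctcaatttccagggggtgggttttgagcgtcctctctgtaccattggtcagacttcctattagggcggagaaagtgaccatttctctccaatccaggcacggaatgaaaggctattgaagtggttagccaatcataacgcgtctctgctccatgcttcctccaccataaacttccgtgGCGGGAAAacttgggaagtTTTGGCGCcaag
Mcm5: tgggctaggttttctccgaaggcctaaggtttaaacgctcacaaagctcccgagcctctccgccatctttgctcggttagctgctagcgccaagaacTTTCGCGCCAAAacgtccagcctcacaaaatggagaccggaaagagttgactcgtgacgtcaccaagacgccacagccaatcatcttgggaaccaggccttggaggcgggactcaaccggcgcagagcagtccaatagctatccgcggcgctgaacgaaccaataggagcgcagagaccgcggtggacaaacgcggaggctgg
Mcm6: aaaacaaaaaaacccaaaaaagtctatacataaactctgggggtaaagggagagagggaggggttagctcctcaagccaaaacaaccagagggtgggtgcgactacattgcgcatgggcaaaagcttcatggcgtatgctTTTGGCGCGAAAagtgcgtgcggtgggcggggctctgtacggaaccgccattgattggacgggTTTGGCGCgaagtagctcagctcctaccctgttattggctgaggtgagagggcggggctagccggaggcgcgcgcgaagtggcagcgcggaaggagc
Hells: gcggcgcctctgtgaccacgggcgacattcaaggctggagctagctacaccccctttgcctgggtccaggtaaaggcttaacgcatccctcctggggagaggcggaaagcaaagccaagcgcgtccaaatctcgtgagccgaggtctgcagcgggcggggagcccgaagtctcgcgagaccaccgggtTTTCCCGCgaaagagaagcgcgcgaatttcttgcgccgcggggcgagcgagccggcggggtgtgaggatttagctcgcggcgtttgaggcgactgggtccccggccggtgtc
Uhrf1: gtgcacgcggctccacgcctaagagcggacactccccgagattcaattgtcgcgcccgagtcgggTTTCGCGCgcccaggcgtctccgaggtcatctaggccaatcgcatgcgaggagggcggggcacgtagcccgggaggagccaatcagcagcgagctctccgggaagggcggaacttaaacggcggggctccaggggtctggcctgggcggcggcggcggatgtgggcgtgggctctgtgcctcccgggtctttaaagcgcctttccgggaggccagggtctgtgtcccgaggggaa
Mcm3 held 2 matches, both after the start, Mcm5 held 2 that overlap each other, Mcm6 held 3 of which 2 overlap, and Hells and the second Uhrf1 promoter held 1 each. The first Uhrf1 promoter, at chr17:56303087-56303386, held none. Among all 32851 RefSeq promoters, 744 held a match, a share of 2.26%, and by gene the share was 704 of 27025. Of the licensing genes 9 of 17 with a promoter in the table held a match, of the G1/S control genes 7 of 19, of the chromatin copying genes 7 of 21, of the polymerase and fork genes 7 of 22 and of the replication stress and repair genes 5 of 17. Of the nucleotide synthesis genes 0 of 20 held one, and of the genes for G2 and mitosis 2 of 21. The CCAAT box, counted on both strands, was in 37.4% of all promoters. By gene it was in 11096 of 27025, and in 19 of 21 genes for G2 and mitosis. A match describes these letters in this window and is not a measured binding site.

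The cells were macrophages by markers that the criteria did not use. Levels are given in CPM, the UMIs of a gene per 1000000 UMIs summed over the cells of a class in a library. Csf1r, the receptor for the macrophage growth factor CSF1, stood at 501 CPM in Cd36-/- and 544 CPM in fl/fl members. Adgre1, which encodes F4/80, stood at 228 CPM in Cd36-/- and 239 CPM in fl/fl members, and Spi1, the myeloid transcription factor PU.1, at 339 CPM in Cd36-/- and 334 CPM in fl/fl members. These 3' end counts are not divided by length, so levels are compared between cells and not between genes. Fewer cells with a transcript and less of it per cell cannot be told apart in such sums.

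Without UMIs of the Gata6 set, transcripts of resident cells were still present in members. Timd4, a receptor for phosphatidylserine on dying cells, stood at 154 CPM in Cd36-/- and 125 CPM in fl/fl members, and Icam2, an adhesion molecule, at 613 CPM in Cd36-/- and 555 CPM in fl/fl members. Vsig4, a complement receptor of resident cells, was near absent, at 3.25 CPM in Cd36-/- and 3.30 CPM in fl/fl members. In S-phase large peritoneal macrophages (LPM), which met the same replication and mitotic criteria with at least 1 UMI of the Gata6 set, Vsig4 stood at 53.0 CPM in Cd36-/- and 60.6 CPM in fl/fl S-phase LPM. The members are called Gata6-low by the count of UMIs alone, since a cell with few Gata6 transcripts can also give 0 UMIs. Of the cells that met every other criterion, 105 Cd36-/- and 87 fl/fl cells had exactly 1 UMI of the Gata6 set and stood just outside. A further 220 Cd36-/- and 174 fl/fl cells had more.

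The replication criterion is a raw count, which a cell with more UMIs passes more easily. Members were deeper than resting cells, and the part of the criterion in this was not tested. Members had a median of 11154.5 UMIs in Cd36-/- and 12979 in fl/fl cells. Resting Gata6-low macrophages, which have at most 1 UMI in each of the replication and mitotic sets, had medians of 6178 in Cd36-/- and 7190 in fl/fl cells. The depth of members ran from 2371 to 21429 UMIs among Cd36-/- cells and from 2601 to 24314 among fl/fl cells. The median mitochondrial share was 2.21% in Cd36-/- and 2.38% in fl/fl members. Summed over members there were 1847272 Cd36-/- and 1818797 fl/fl UMIs. The whole libraries held 116600732 Cd36-/- and 117238057 fl/fl UMIs. The libraries shared 383 barcodes, of which 6 were carried by Cd36-/- and 4 by fl/fl members, and 0 by members of both.

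The replication set gave a median of 7 UMIs per Cd36-/- member, up to 18, and of 8 per fl/fl member, up to 22. The criterion cuts through a continuous tail. At exactly 5 UMIs stood 34 Cd36-/- and 22 fl/fl members, and just outside at 4 UMIs stood 52 Cd36-/- and 33 fl/fl cells that met all other criteria. At the mitotic criterion 13 Cd36-/- and 9 fl/fl members had 4 UMIs, and 7 cells of each library were left out with 5. A further 124 Cd36-/- and 91 fl/fl Gata6-low macrophages passed the replication criterion with 5 or more mitotic-set UMIs and are counted as mitotic here. No member owed its place to 1 gene. UMIs of all 5 genes were in 38 Cd36-/- and 33 fl/fl members, of 4 genes in 63 Cd36-/- and 70 fl/fl members, of 3 genes in 56 Cd36-/- and 38 fl/fl members, and of 2 genes in 17 Cd36-/- and 6 fl/fl members.

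**Figure D1:**
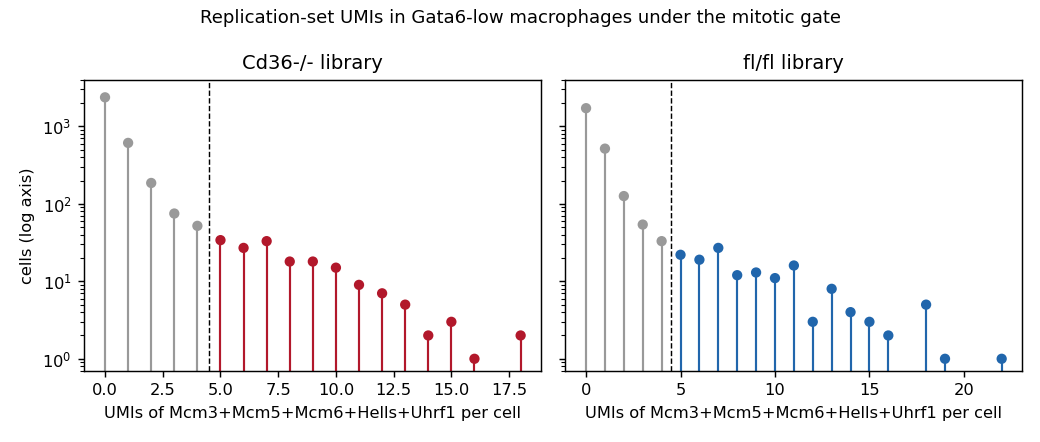
Number of cells (log axis) by UMIs of the replication set among Gata6-low macrophages that meet the other criteria, Cd36-/- library on the left and fl/fl library on the right. The dashed line is the criterion of 5 UMIs; 34 Cd36-/- and 22 fl/fl members stand at 5 UMIs, and 52 Cd36-/- and 33 fl/fl cells just outside at 4.

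The helicase and its loaders, read in genes outside the replication set, were far higher in members than in resting cells. The criteria drew this contrast themselves, so its values describe the members and nothing is read from them. Of 5135 genes compared, each with at least 20 CPM in a class of 1 library, 134 were at least 2-fold higher in members in both libraries, a background of 2.61%, and 32 were at least 2-fold lower, 0.623%. Of the 13 licensing genes compared beside the set, 12 were among the 134. Their median log2 ratio over resting cells was 3.04 for Cd36-/- and 3.00 for fl/fl cells. Mcm2, a helicase subunit, stood at 78.0 CPM in Cd36-/- and 79.2 CPM in fl/fl members, against 5.26 CPM in Cd36-/- and 5.84 CPM in fl/fl resting cells. Cdt1, which loads the helicase, stood at 69.3 CPM in Cd36-/- and 46.2 CPM in fl/fl members, against 12.1 CPM in Cd36-/- and 10.3 CPM in fl/fl resting cells. Its inhibitor Gmnn stood at 163 CPM in Cd36-/- and 120 CPM in fl/fl members, against 33.5 CPM in Cd36-/- and 24.1 CPM in fl/fl resting cells. Mcmbp, which binds free Mcm proteins, was the licensing gene closest to its resting level, at 73.6 CPM in Cd36-/- and 69.8 CPM in fl/fl members, against 47.0 CPM in Cd36-/- and 50.4 CPM in fl/fl resting cells.

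The polymerases and fork proteins followed, with 17 of 21 genes at least 2-fold higher than in resting cells in both libraries. Lig1, which seals the lagging strand, stood at 141 CPM in Cd36-/- and 114 CPM in fl/fl members, against 11.6 CPM in Cd36-/- and 8.46 CPM in fl/fl resting cells. Pcna had a higher resting level, with 112 CPM in Cd36-/- and 103 CPM in fl/fl members, against 30.3 CPM in Cd36-/- and 26.8 CPM in fl/fl resting cells. Of the genes of replication stress and repair 11 of 11 were at least 2-fold higher, with median log2 ratios of 4.33 for Cd36-/- and 3.19 for fl/fl cells. Only 2 of these 11, and 6 of the 21 polymerase and fork genes, reached 20 CPM in resting cells of a library. The others, like the licensing gene Mcm2, were compared only through their level in members. Such counts were thus in part fixed by that choice and do not rank the lists. Dtl, which directs the destruction of Cdt1, stood at 27.1 CPM in Cd36-/- and 25.8 CPM in fl/fl members, against 0.693 CPM in Cd36-/- and 0.470 CPM in fl/fl resting cells. Clspn, an adaptor of the checkpoint kinase Chk1, stood at 38.4 CPM in Cd36-/- and 29.7 CPM in fl/fl members, against 0.924 CPM in Cd36-/- and 0.873 CPM in fl/fl resting cells. These genes were close to 0 in resting cells, as was Ung, which removes uracil from DNA. Ung stood at 30.9 CPM in Cd36-/- and 28.0 CPM in fl/fl members, against 0.924 CPM in Cd36-/- and 1.48 CPM in fl/fl resting cells.

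Nucleotide and chromatin genes had more of a base in resting cells. Of the nucleotide synthesis genes 15 of 16 were higher in members in both libraries, beside 36.8% of all genes, and 7 were at least 2-fold higher. Rrm1, the large subunit of ribonucleotide reductase, stood at 79.6 CPM in Cd36-/- and 85.8 CPM in fl/fl members, against 9.24 CPM in Cd36-/- and 9.54 CPM in fl/fl resting cells. The exception was Samhd1, which breaks deoxynucleotides down, at 261 CPM in Cd36-/- and 271 CPM in fl/fl members, against 386 CPM in Cd36-/- and 361 CPM in fl/fl resting cells. Of the chromatin copying genes 20 of 21 were higher in both libraries and 10 at least 2-fold higher. Chaf1a, a subunit of the histone chaperone CAF-1, stood at 44.4 CPM in Cd36-/- and 34.6 CPM in fl/fl members, against 2.66 CPM in Cd36-/- and 2.01 CPM in fl/fl resting cells. Cdca7, which activates Hells, stood at 63.3 CPM in Cd36-/- and 53.3 CPM in fl/fl members, against 2.89 CPM in Cd36-/- and 2.75 CPM in fl/fl resting cells. The control of the cycle's start was less uniform: of the G1/S genes 4 of 11 were at least 2-fold higher in both libraries. E2f1 itself stood at 60.1 CPM in Cd36-/- and 52.8 CPM in fl/fl members, against 11.8 CPM in Cd36-/- and 11.6 CPM in fl/fl resting cells. Ccnd1, a cyclin that starts the cycle, stood at 172 CPM in Cd36-/- and 118 CPM in fl/fl members, against 41.8 CPM in Cd36-/- and 32.2 CPM in fl/fl resting cells. All 14 ribosome biogenesis genes compared were higher in members in both libraries, 1 of them by at least 2-fold.

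Many of the genes lowest in members against resting cells were transcripts of other cells. Gzma, a granzyme of natural killer and cytotoxic T cells, stood at 5.41 CPM in Cd36-/- and 2.75 CPM in fl/fl members, against 125 CPM in Cd36-/- and 40.9 CPM in fl/fl resting cells. The 10 natural killer markers summed to 135 CPM in Cd36-/- and 178 CPM in fl/fl members, against 1010 CPM in Cd36-/- and 376 CPM in fl/fl resting cells. S100a9, of neutrophils, stood at 13 CPM in Cd36-/- and 2.20 CPM in fl/fl members, against 54.7 CPM in Cd36-/- and 85.3 CPM in fl/fl resting cells. Resting cells thus carried more transcripts of other cells than members, and the part of these in the contrast was not tested. The B cell transcript Igkc was present in both, at 265 CPM in Cd36-/- and 246 CPM in fl/fl members, against 362 CPM in Cd36-/- and 354 CPM in fl/fl resting cells. Of the 10 mesothelial and fibroblast markers 9 were at 0 in Cd36-/- and 8 in fl/fl members.

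Beside mitotic Gata6-low macrophages, members held early S-phase messages at a comparable level and late ones far below. The mitotic cells are the 285 Cd36-/- and 183 fl/fl cells with at least 5 mitotic-set UMIs, and the criteria drew this contrast as well. Of 5349 genes, 5 were at least 2-fold higher in members in both libraries, 0.0935%, and 176 were at least 2-fold lower, 3.29%. Ung led the higher genes, with 30.9 CPM in Cd36-/- and 28.0 CPM in fl/fl members, against 6.20 CPM in Cd36-/- and 10.6 CPM in fl/fl mitotic cells. Ccnd1 stood at 172 CPM in Cd36-/- and 118 CPM in fl/fl members, against 56.1 CPM in Cd36-/- and 58.5 CPM in fl/fl mitotic cells. Ckb, the brain-type creatine kinase, was another of the 5, at 115 CPM in Cd36-/- and 129 CPM in fl/fl members, against 54.3 CPM in Cd36-/- and 63.6 CPM in fl/fl mitotic cells. Of the genes for G2 and mitosis compared beside the mitotic set, 25 of 26 were at least 2-fold lower. Ccnb2, a mitotic cyclin, stood at 3.79 CPM in Cd36-/- and 4.95 CPM in fl/fl members, against 175 CPM in Cd36-/- and 159 CPM in fl/fl mitotic cells. All 7 replicative histones compared were lower in both libraries, beside 38.8% of all genes. Summed over the 19 listed, these histones stood at 153 CPM in Cd36-/- and 122 CPM in fl/fl members. Resting cells had 146 CPM in Cd36-/- and 163 CPM in fl/fl cells, so members did not stand above resting cells in both libraries. Hist1h2ap stood at 86.1 CPM in Cd36-/- and 55.5 CPM in fl/fl members, against 3942 CPM in Cd36-/- and 2582 CPM in fl/fl mitotic cells. Histone genes of this family have near-identical copies, and their messages mostly lack a poly-A tail, which the 3' protocol needs.

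**Figure D2:**
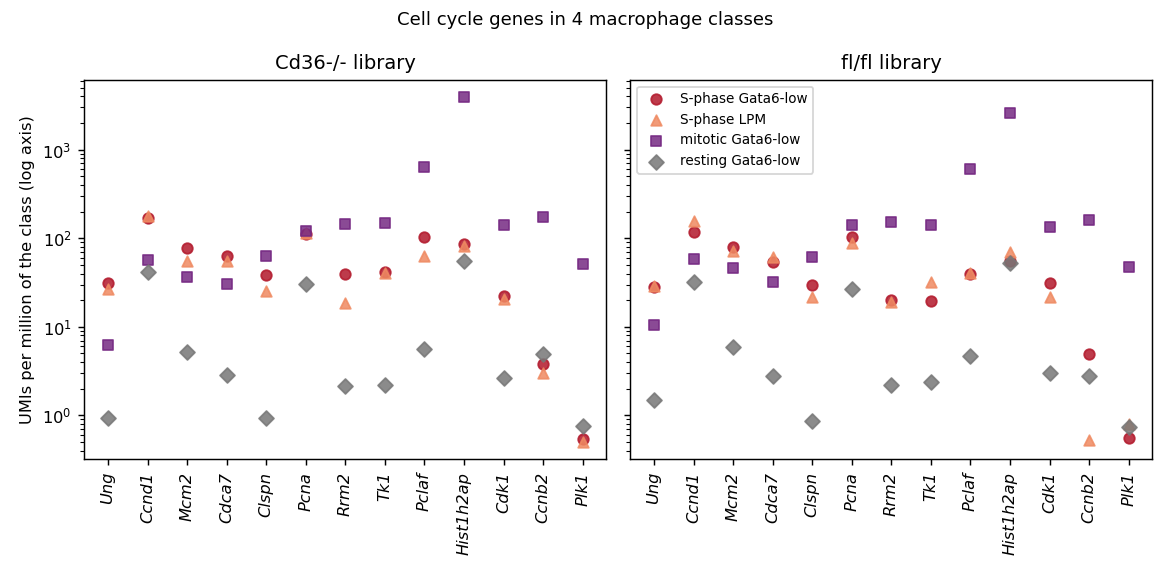
Level in CPM (log axis) of 13 cell cycle genes in 4 classes of macrophages, S-phase Gata6-low, mitotic Gata6-low, resting Gata6-low and S-phase LPM, with the Cd36-/- library on the left and the fl/fl library on the right. Mcm2 stands at 78.0 CPM in Cd36-/- and 79.2 CPM in fl/fl S-phase Gata6-low cells and near the bottom in resting ones, while Hist1h2ap is highest in mitotic cells, at 3942 CPM for Cd36-/- and 2582 CPM for fl/fl cells.

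Members differed among themselves in early and later genes. An early set of Ccne1, Ccne2, Cdc6, Cdt1, Slbp, Mcm2, Mcm4 and Mcm7 had a median of 4.93 UMIs per 10000 in Cd36-/- members, with quartiles at 2.63 and 6.95, and of 3.71 in fl/fl members, with quartiles at 2.16 and 5.67. It had no UMI in 6 Cd36-/- and 4 fl/fl members. A later set of Rrm2, Tyms, Pclaf, Tk1, Hist1h1b, Hist1h2ae, Hist1h2ap and Hist1h1e had a median of 1.69 in Cd36-/- and 1.17 in fl/fl members, and no UMI in 41 Cd36-/- and 40 fl/fl members. More members lacked the later set than the early one, an order on which the criteria bear. They ask for UMIs of a set with Mcm3, Mcm5 and Mcm6, helicase partners of Mcm2, Mcm4 and Mcm7, and cap the mitotic set. The highest later-set value was 57.6 UMIs per 10000 in Cd36-/- and 8.62 in fl/fl members. As sums, the early set gave 491 CPM in Cd36-/- and 399 CPM in fl/fl members, against 364 CPM in Cd36-/- and 469 CPM in fl/fl mitotic cells. The later set gave 309 CPM in Cd36-/- and 174 CPM in fl/fl members, against 5080 CPM in Cd36-/- and 3688 CPM in fl/fl mitotic cells. Members with a few mitotic-set UMIs held more of the later set. It stood at 414 CPM in the 104 Cd36-/- members with 1 to 4 such UMIs, against 146 CPM in the 70 with 0, and at 228 CPM in the 76 fl/fl members with 1 to 4, against 108 CPM in the 71 with 0. The early set was also higher in them, at 551 against 397 CPM in Cd36-/- and 450 against 337 CPM in fl/fl members.

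The share of Gata6-low macrophages that were members, called the S-phase share here, differed between the libraries by less than the counting error. It was 4.63% in the Cd36-/- library, 174 of 3755 cells with an interval of 3.98% to 5.36%, and 5.30% in the fl/fl library, 147 of 2776 cells with an interval of 4.49% to 6.19%. The difference was -0.66 percentage points, with an interval of -1.77 to 0.42. Outside this share are 124 Cd36-/- and 91 fl/fl cells past the replication criterion that held 5 or more mitotic-set UMIs. Of all cells, members were 1.09% of the Cd36-/- and 0.998% of the fl/fl library. Mitotic cells were 7.59% of Cd36-/- and 6.59% of fl/fl Gata6-low macrophages. Among Gata6-set-positive macrophages the S-phase share was 5.07% in Cd36-/- and 5.65% in fl/fl cells. Thinned to 4000 UMIs per cell, with criteria of 2 UMIs, S-phase cells were 8.15% of the Gata6-low cells for Cd36-/- and 8.06% for fl/fl cells. This left out 1104 Cd36-/- and 716 fl/fl Gata6-low cells that were shallower, 8 Cd36-/- and 4 fl/fl members among them. Counting the Gata6 set after thinning in place of before added 1124 Cd36-/- and 858 fl/fl cells that had lost their UMIs of that set, and the shares were then 8.69% for Cd36-/- and 9.36% for fl/fl cells. The direction between the libraries thus depended on the criteria. With 5 UMIs per 10000 in place of 5 raw UMIs, 286 Cd36-/- cells, 7.62%, and 180 fl/fl cells, 6.48%, passed. Of these 96 Cd36-/- and 47 fl/fl cells had 2 or fewer replication-set UMIs.

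Within Gata6-low macrophages the S-phase share was lower in cells with Ccr2 and antigen presentation transcripts. It was read after thinning to 4000 UMIs in cells without UMIs of the Gata6 set before it. A cell passed with at least 2 replication-set and under 2 mitotic-set UMIs, which is not a measured stage of the cycle. Among cells with at least 2 UMIs of Ccr2, the chemokine receptor of recruited monocytes, 4.32% of Cd36-/- and 5.92% of fl/fl cells passed. Among cells with fewer, 10.3% of Cd36-/- and 9.65% of fl/fl cells did. The intervals did not overlap in either library, with an upper bound of 5.82% against a lower bound of 8.88% for Cd36-/- cells and of 7.69% against 8.03% for fl/fl cells. The genes Cd74, H2-Aa, H2-Ab1 and H2-Eb1 present antigen on MHC class II. Among cells with 40 or more summed UMIs of them, 6.20% of Cd36-/- and 5.22% of fl/fl cells passed. Among cells with fewer, 9.87% of Cd36-/- and 10.1% of fl/fl cells did, again with intervals apart. For Folr2, a folate receptor of tissue-resident macrophages, and for Timd4 the intervals of cells above and below 2 UMIs overlapped. The S-phase share was 7.16% in Cd36-/- and 9.79% in fl/fl cells with 2 UMIs of Folr2 or more, against 8.30% in Cd36-/- and 7.72% in fl/fl cells with fewer. It was 8.42% in Cd36-/- and 6.07% in fl/fl cells with 2 UMIs of Timd4 or more, against 8.09% in Cd36-/- and 8.33% in fl/fl cells with fewer. Chil3, another gene of recruited monocytes, was read with the Gata6 set counted after thinning. The S-phase share was 4.71% in Cd36-/- and 6.02% in fl/fl cells with 2 UMIs of Chil3 or more. In cells with fewer it was 8.88% in Cd36-/- and 9.52% in fl/fl cells, and the intervals overlapped in both libraries.

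The levels summed over members ran the same way. Ccr2 stood at 173 CPM in Cd36-/- and 203 CPM in fl/fl members, against 385 CPM in Cd36-/- and 450 CPM in fl/fl resting cells. Plac8, a gene of recently arrived monocytes, stood at 109 CPM in Cd36-/- and 102 CPM in fl/fl members, against 209 CPM in Cd36-/- and 192 CPM in fl/fl resting cells. All 10 genes compared of the list of MHC class II and dendritic cell-like macrophages were lower than in resting cells in both libraries, beside 37.9% of all genes, and 3 of them were at least 2-fold lower. Apoe, a lipoprotein of lipid efflux, stood at 1595 CPM in Cd36-/- and 1058 CPM in fl/fl members, against 3796 CPM in Cd36-/- and 2069 CPM in fl/fl resting cells. Fn1, fibronectin, did not follow this order, at 7894 CPM in Cd36-/- and 8509 CPM in fl/fl members, against 6770 CPM in Cd36-/- and 7104 CPM in fl/fl resting cells. Lower levels were not particular to these genes. In both libraries 14 of 16 macrophage core genes were lower in members and 2 higher. The same held for 10 of 13 growth factor receptors and transcription factors, with 0 higher, and 7 of 9 Folr2 programme genes, with 1 higher. Of 17 LPM identity genes 10 were higher and 3 lower.

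S-phase LPM, chosen by the same replication criterion, differed from members in identity genes. Of 5067 genes compared, 0 were at least 2-fold higher in members in both libraries, 0%, and 28 were at least 2-fold lower, 0.553%. Of the 13 licensing genes compared beside the replication set, 6 were higher in members in both libraries, 1 was lower in both and 0 were 2-fold apart. Mcm2 stood at 78.0 CPM in Cd36-/- and 79.2 CPM in fl/fl members, against 55.5 CPM in Cd36-/- and 71.9 CPM in fl/fl S-phase LPM. Of the LPM identity genes 17 of 18 were lower in members in both libraries, beside 21.6% of all genes, and 10 were at least 2-fold lower, a contrast on which the Gata6 criterion bears. Alox15, a lipoxygenase of resident cells, stood at 89.9 CPM in Cd36-/- and 118 CPM in fl/fl members, against 653 CPM in Cd36-/- and 528 CPM in fl/fl S-phase LPM. Cxcl13, a B cell chemokine, stood at 16.8 CPM in Cd36-/- and 9.35 CPM in fl/fl members, against 308 CPM in Cd36-/- and 225 CPM in fl/fl S-phase LPM. Cald1, an actin-binding protein, led the lower genes, at 1.62 CPM in Cd36-/- and 1.65 CPM in fl/fl members, against 60.7 CPM in Cd36-/- and 52.2 CPM in fl/fl S-phase LPM. Fabp4, a fatty acid carrier, stood at 27.1 CPM in Cd36-/- and 50.6 CPM in fl/fl members, against 372 CPM in Cd36-/- and 322 CPM in fl/fl S-phase LPM. Saa3, an acute-phase protein, was strong in both kinds, at 11022 CPM in Cd36-/- and 8562 CPM in fl/fl members, against 22142 CPM in Cd36-/- and 17142 CPM in fl/fl S-phase LPM. Under the 2-fold limit the members' highest gene was Mrc1, the mannose receptor, at 46.0 CPM in Cd36-/- and 54.4 CPM in fl/fl members, against 21.1 CPM in Cd36-/- and 27.4 CPM in fl/fl S-phase LPM. F13a1, coagulation factor XIII A, came next, at 152 CPM in Cd36-/- and 208 CPM in fl/fl members, against 96.6 CPM in Cd36-/- and 125 CPM in fl/fl S-phase LPM.

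Between Cd36-/- and fl/fl members, lysozyme genes and Cd36 differed in the same direction as in the other classes. The criteria do not use the genotype, but a raw count of replication UMIs selects differently at different depths, so they bear on this comparison for replication genes. Cd36, the scavenger and fatty acid receptor, stood at 162 CPM in Cd36-/- and 240 CPM in fl/fl members, a log2 ratio of -0.57 with an interval of -0.78 to -0.35. Its ratio was -0.37 in resting cells, -0.44 in mitotic cells and -0.61 in S-phase LPM. The labels do not give the floxed part of Cd36, and 3' tags can lie outside it, so this level checks neither the deletion nor the labels. Lyz2, lysozyme M, whose locus carries the Cre, stood at 14467 CPM in Cd36-/- and 25580 CPM in fl/fl members, a log2 ratio of -0.82 with an interval of -0.84 to -0.80. The ratio was -0.80 in resting cells, -0.76 in mitotic cells and -0.70 in S-phase LPM. Lyz1, the lysozyme gene beside it, went the other way, at 1909 CPM in Cd36-/- and 463 CPM in fl/fl members, a log2 ratio of 2.04 with an interval of 1.94 to 2.15. Its ratio was 2.13 in resting cells, and larger in mitotic cells, at 2.38, and in S-phase LPM, at 2.59. Lyz1 and Lyz2 are close copies whose reads may be split between them.

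Few genes were far apart. Of 4894 genes compared, with 20 CPM or more in 1 library, 53 were at least 2-fold apart, 1.08%. In Cd36-/- members 31 were higher, 0.633%, and 22 lower, 0.45%. Such genes were 19 of 4635, 0.41%, in resting cells, 16 of 5060, 0.316%, in mitotic cells and 13 of 4739, 0.274%, in S-phase LPM, each of which summed to more UMIs and so had less counting error. For 4 genes the whole interval lay beyond 2-fold, 0.0817%: Lyz1, Gbp2b, Ins2 and the gene model Gm42031. Ins2, insulin, had 109 UMIs in Cd36-/- and 1 in fl/fl members, and 93.6% of the Cd36-/- UMIs were in 1 cell. Gbp2b, an interferon-induced guanylate-binding protein, stood at 30.3 CPM in Cd36-/- and 7.15 CPM in fl/fl members, a log2 ratio of 2.08 with an interval of 1.2 to 3.08. The ratio was 1.18 in resting cells, and 3.12 without the members that had mitotic-set UMIs. Reads of Gbp2b and Gbp2 may be split as well.

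**Figure D3:**
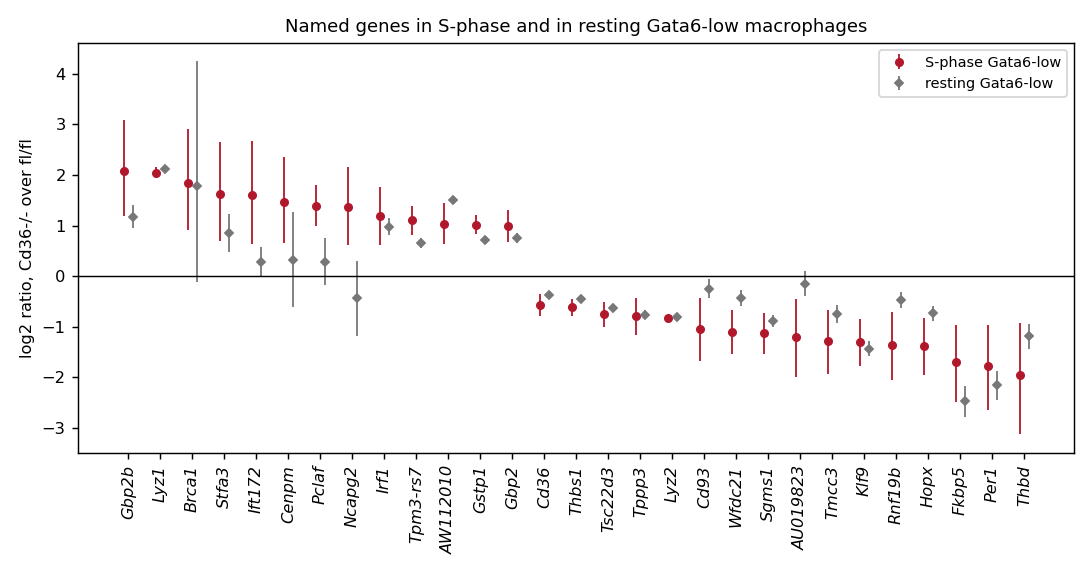
Log2 ratio of Cd36-/- over fl/fl for the genes named by rank, in S-phase Gata6-low macrophages and in resting ones, with exact 95% counting intervals as bars; Ins2 and 1 further gene are not drawn. Lyz1 at 2.04 and Lyz2 at -0.82 lie near their resting values of 2.13 and -0.80, whereas Pclaf at 1.39 stands apart from its resting value of 0.29.

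Some genes high in the ranking have close copies and are uncertain. Gstp1, a glutathione transferase with close paralogs, stood at 357 CPM in Cd36-/- and 176 CPM in fl/fl members. Tpm3-rs7, a copy of the tropomyosin gene Tpm3, stood at 171 CPM in Cd36-/- and 79.7 CPM in fl/fl members. The genes at the lower end were ranked by their ratio in members, so their distance from resting cells is in part fixed by that choice. Hopx, a homeodomain-only protein, stood at 21.1 CPM in Cd36-/- and 55.0 CPM in fl/fl members, a log2 ratio of -1.38 with an interval of -1.95 to -0.83, against a ratio of -0.74 in resting cells. Sgms1, a sphingomyelin synthase, stood at 40.1 CPM in Cd36-/- and 87.4 CPM in fl/fl members, a log2 ratio of -1.13, against -0.88 in resting cells, and the interval of the difference, -0.68 to 0.18, includes 0. Cd93, a receptor of myeloid and endothelial cells, stood at 18.9 CPM in Cd36-/- and 39.0 CPM in fl/fl members, a ratio of -1.04 against -0.25 in resting cells, with an interval of the difference of -1.45 to -0.16. Rnf19b, a ubiquitin ligase, stood at 15.2 CPM in Cd36-/- and 39.0 CPM in fl/fl members, a ratio of -1.36 against -0.47 in resting cells, with an interval of the difference of -1.60 to -0.23. Over 4394 genes compared in both classes, 206 had a difference interval above 0 and 172 below 0.

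The replication genes stood slightly higher in Cd36-/- than in fl/fl members, by list medians of 0.12 to 0.34 on the log2 scale beside 0.00 over all genes. Counts here leave out the replication set, whose sum chose the members. Of all genes compared, 50.2% were higher in Cd36-/- members, 8.38% with an interval above 0, and 49.8% were lower, 7.32% with an interval below 0. Of the licensing genes 11 of 13 were higher, 3 of them with the interval above 0, and the median was 0.32, or 0.23 over 16 with the set's genes. For the helicase subunit Mcm2 the interval included 0, at 78.0 CPM in Cd36-/- and 79.2 CPM in fl/fl members, a log2 ratio of -0.02 with an interval of -0.37 to 0.32. The loader and its inhibitor were apart. Cdt1 stood at 69.3 CPM in Cd36-/- and 46.2 CPM in fl/fl members, a log2 ratio of 0.59 with an interval of 0.18 to 1.00. Gmnn stood at 163 CPM in Cd36-/- and 120 CPM in fl/fl members, a log2 ratio of 0.44 with an interval of 0.19 to 0.70. Cdc6, which brings Cdt1 to the origin, stood at 23.8 CPM in Cd36-/- and 15.4 CPM in fl/fl members, with an interval of -0.09 to 1.37 that includes 0. Among polymerases and fork proteins 13 of 21 were higher, 5 with the interval above 0, with a median of 0.12. Rfc5, a subunit of the clamp loader, stood at 55.8 CPM in Cd36-/- and 39.0 CPM in fl/fl members, and the clamp Pcna at 112 CPM in Cd36-/- and 103 CPM in fl/fl members.

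Pclaf, the PCNA-associated factor, was further apart than any other polymerase or fork gene. It stood at 102 CPM in Cd36-/- and 39.0 CPM in fl/fl members, a log2 ratio of 1.39 with an interval of 0.99 to 1.80. The ratio was 0.29 in resting cells, 0.05 in mitotic cells and 0.63 in S-phase LPM, and its difference from resting cells was 1.10, interval 0.49 to 1.72. Without the 35 Cd36-/- and 36 fl/fl members with at least 2 UMIs of Alox15 or 1 of Vsig4 it was 2.31. Other genes with high ratios were, like Pclaf, most abundant in mitotic cells. Rrm2, the small subunit of ribonucleotide reductase, stood at 39.0 CPM in Cd36-/- and 20.3 CPM in fl/fl members, against 146 CPM in Cd36-/- and 153 CPM in fl/fl mitotic cells, a log2 ratio of 0.94 with an interval of 0.35 to 1.55 in members. Tk1, thymidine kinase, stood at 41.7 CPM in Cd36-/- and 19.8 CPM in fl/fl members, against 147 CPM in Cd36-/- and 140 CPM in fl/fl mitotic cells, a log2 ratio of 1.07 with an interval of 0.49 to 1.69 in members. Stmn1, a microtubule regulator, stood at 238 CPM in Cd36-/- and 145 CPM in fl/fl members, against 999 CPM in Cd36-/- and 936 CPM in fl/fl mitotic cells, a log2 ratio of 0.71 with an interval of 0.49 to 0.94 in members. Mitotic cells themselves were near even between the libraries in these genes. Of the members, 104 of 174 Cd36-/- and 76 of 147 fl/fl cells had 1 to 4 mitotic-set UMIs. In members with 0 such UMIs the later set stood at 146 CPM in Cd36-/- and 108 CPM in fl/fl cells, and Pclaf was under 20 CPM in both libraries. The part of cells near the mitotic criterion in the other ratios was not tested.

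Nucleotide synthesis genes were higher in Cd36-/- members in 10 of 16, 7 with the interval above 0, with a median of 0.19. Dut, which clears dUTP, stood at 155 CPM in Cd36-/- and 118 CPM in fl/fl members, a log2 ratio of 0.39 with an interval of 0.13 to 0.65. Nme1, a nucleoside diphosphate kinase, stood at 348 CPM in Cd36-/- and 259 CPM in fl/fl members, a log2 ratio of 0.43 with an interval of 0.25 to 0.60. Rrm1 and Tyms had intervals that include 0, with Rrm1 at 79.6 CPM in Cd36-/- and 85.8 CPM in fl/fl members and Tyms at 30.3 CPM in Cd36-/- and 31.3 CPM in fl/fl members. Of the chromatin copying genes 16 of 21 were higher, 4 with the interval above 0, with a median of 0.22. Within the replication set, as a description, Uhrf1 stood at 80.1 CPM in Cd36-/- and 49.5 CPM in fl/fl members, and Hells at 141 CPM in Cd36-/- and 122 CPM in fl/fl members. Of the G1/S control genes 9 of 11 were higher, 3 with the interval above 0, with a median of 0.23. Ccnd1 stood at 172 CPM in Cd36-/- and 118 CPM in fl/fl members, a log2 ratio of 0.54 with an interval of 0.28 to 0.79. Of the replication stress and repair genes 10 of 11 were higher, 3 with the interval above 0, with a median of 0.34. Timeless, a fork protection protein, stood at 30.3 CPM in Cd36-/- and 15.9 CPM in fl/fl members, a log2 ratio of 0.93 with an interval of 0.26 to 1.63. Brca1, which acts in recombination repair, had 44 UMIs in Cd36-/- and 12 in fl/fl members, and its log2 ratio of 1.85 stood beside -0.74 in S-phase LPM.

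These medians were read again with other choices of cells, here with the genes of the replication set among them. With the criterion set at 5 UMIs per 10000, the median was 0.18 for licensing, 0.03 for polymerases and fork proteins, 0.06 for nucleotide synthesis, 0.17 for chromatin copying, 0.17 for G1/S control and 0.29 for repair. Without members that had mitotic-set UMIs it was 0.17 for licensing, 0.18 for polymerases and fork proteins, 0.45 for nucleotide synthesis, 0.24 for chromatin copying, 0.05 for G1/S control and 0.04 for repair. All stayed above 0 under both, and the part of depth and of cell cycle stage in them was not tested. The licensing median between the libraries was 0.09 over the 3 genes compared in resting cells, -0.16 over 17 in mitotic cells and 0.01 over 15 in S-phase LPM.

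**Figure D4:**
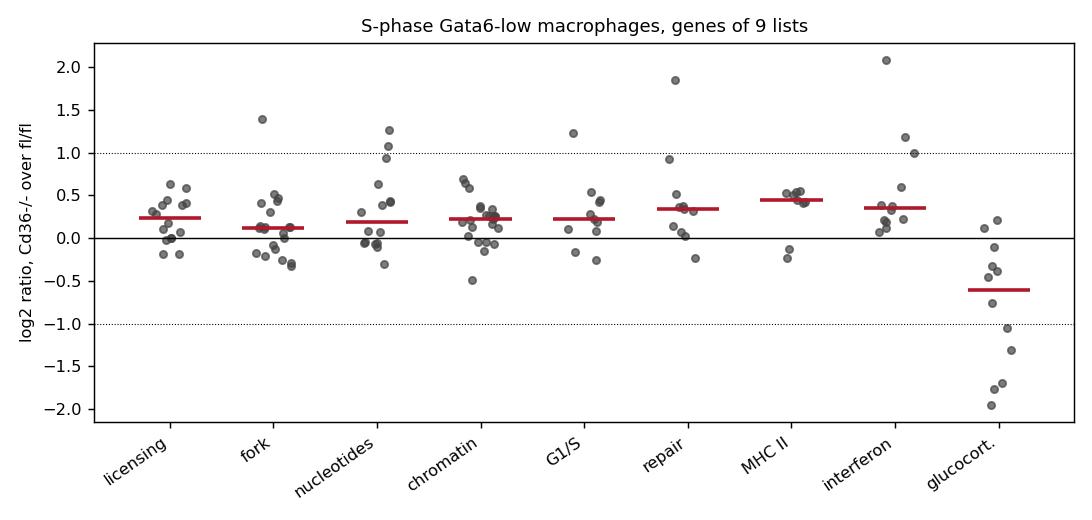
Log2 ratio of Cd36-/- over fl/fl in S-phase Gata6-low macrophages for the genes of 9 lists; each dot is a gene, the red bar is the list's median and the dotted lines mark 2-fold. The replication lists have medians from 0.12 to 0.34, MHC class II 0.45, interferon-induced genes 0.35 and glucocorticoid-induced genes -0.61.

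MHC class II stood higher in Cd36-/- than in fl/fl members, while the summed levels of resting cells were near each other. Cd74, the invariant chain that guides MHC class II to its peptides, stood at 4817 CPM in Cd36-/- and 3293 CPM in fl/fl members, a log2 ratio of 0.55 with an interval of 0.50 to 0.60. Resting cells had 8805 CPM in Cd36-/- and 8659 CPM in fl/fl resting cells. Of the chains that hold the peptide, H2-Ab1 stood at 1586 CPM in Cd36-/- and 1087 CPM in fl/fl members, a log2 ratio of 0.54 with an interval of 0.46 to 0.63. H2-Aa stood at 1786 CPM in Cd36-/- and 1328 CPM in fl/fl members, a log2 ratio of 0.43 with an interval of 0.35 to 0.50. H2-Eb1 stood at 1040 CPM in Cd36-/- and 732 CPM in fl/fl members, a log2 ratio of 0.51 with an interval of 0.41 to 0.61. All were higher in Cd36-/- members by a like factor. In resting cells the ratios were -0.07 for H2-Ab1, -0.09 for H2-Aa and -0.16 for H2-Eb1. The difference between the ratios of members and resting cells was 0.61 for H2-Ab1, interval 0.53 to 0.70, 0.52 for H2-Aa, interval 0.44 to 0.60, and 0.67 for H2-Eb1, interval 0.56 to 0.77. Without replicate libraries this is no test of the genotypes. H2-DMa, which helps load the peptide, stood at 266 CPM in Cd36-/- and 200 CPM in fl/fl members. Ciita, the transactivator of these genes, stood at 23.3 CPM in Cd36-/- and 17 CPM in fl/fl members, with an interval of -0.25 to 1.16 that includes 0. In the list as a whole 7 of 9 genes were higher, 6 with the interval above 0 and 1, Ccr2, with the interval below 0. Its median was 0.45 in members, -0.08 in resting cells, -0.02 in mitotic cells and -0.00 in S-phase LPM. Single genes were higher in Cd36-/- S-phase LPM too, by less than in members. There Cd74 had a log2 ratio of 0.18 with an interval of 0.14 to 0.22. H2-Ab1 had 0.15 with an interval of 0.08 to 0.22. For H2-Aa at 0.04 and H2-Eb1 at -0.04 the intervals in S-phase LPM included 0.

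The shift was spread over the members. The sum of Cd74, H2-Aa, H2-Ab1 and H2-Eb1 had a median of 60.5 UMIs per 10000 in Cd36-/- members, with quartiles at 21.8 and 120 and a range of 4.23 to 503. In fl/fl members the median was 32.1, with quartiles at 10.3 and 83.9 and a range of 2.16 to 379. The distributions overlapped over most of their range, and 0 members of either library lacked a UMI of these genes. Without the 4 members of each library with a UMI of Cd209a or Flt3, which mark dendritic cells, the list's median was 0.36. Without members that had mitotic-set UMIs it was 0.60. The 12 dendritic cell markers summed to 24.9 CPM in Cd36-/- and 13.2 CPM in fl/fl members, with 4 of 12 at 0 in Cd36-/- and 6 of 12 in fl/fl members, and Flt3 was at 0 in both.

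**Figure D5:**
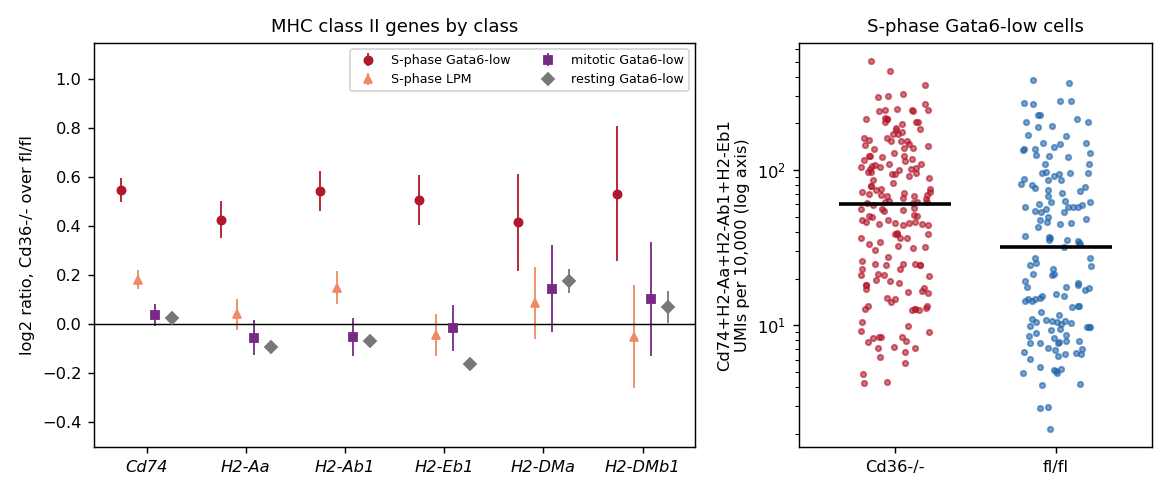
Left, log2 ratio of Cd36-/- over fl/fl for 6 MHC class II genes in 4 classes of macrophages, with exact 95% counting intervals. Right, the sum of Cd74, H2-Aa, H2-Ab1 and H2-Eb1 per 10000 UMIs in each S-phase Gata6-low macrophage (log axis), with medians of 60.5 for Cd36-/- and 32.1 for fl/fl cells.

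Glucocorticoid-induced genes stood lower in Cd36-/- members. Of 12 compared, 10 were lower, 8 with the interval below 0 and 5 by at least 2-fold, and the median was -0.61. Of all genes compared, 49.8% were lower, 7.32% with the interval below 0 and 0.45% by at least 2-fold. Per1, a clock gene that glucocorticoids induce, stood at 9.20 CPM in Cd36-/- and 31.3 CPM in fl/fl members, a log2 ratio of -1.77 with an interval of -2.64 to -0.97. Fkbp5, a co-chaperone of the glucocorticoid receptor, stood at 11.4 CPM in Cd36-/- and 36.8 CPM in fl/fl members, a log2 ratio of -1.70 with an interval of -2.48 to -0.97. Klf9, a receptor target in many cells, stood at 30.9 CPM in Cd36-/- and 76.4 CPM in fl/fl members, a log2 ratio of -1.31 with an interval of -1.78 to -0.85. All of these were more than 2-fold lower. Tsc22d3, which encodes GILZ, stood at 126 CPM in Cd36-/- and 213 CPM in fl/fl members, a log2 ratio of -0.75. Thbd, thrombomodulin, stood at 5.41 CPM in Cd36-/- and 20.9 CPM in fl/fl members. Dusp1, a phosphatase, was on the other side of 0, at 148 CPM in Cd36-/- and 127 CPM in fl/fl members, with an interval of -0.04 to 0.48. The direction was the same in the other classes, with medians of -0.46 in resting cells, -0.29 in mitotic cells and -0.31 in S-phase LPM.

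Interferon-induced genes stood higher in Cd36-/- members in 12 of 12 compared, 4 with the interval above 0 and 2 by at least 2-fold, with a median of 0.35. Of all genes compared, 50.2% were higher, 8.38% with the interval above 0 and 0.633% by at least 2-fold. Irf1, a transcription factor of the interferon-gamma response, stood at 48.7 CPM in Cd36-/- and 21.4 CPM in fl/fl members, a log2 ratio of 1.18 with an interval of 0.63 to 1.77. Gbp2 stood at 139 CPM in Cd36-/- and 69.8 CPM in fl/fl members, a log2 ratio of 0.99 with an interval of 0.68 to 1.31. Zbp1, a nucleic acid sensor, stood at 56.8 CPM in Cd36-/- and 37.4 CPM in fl/fl members, a log2 ratio of 0.60 with an interval of 0.15 to 1.07. Among genes of the type I interferon response, Isg15 and Ifit1 were at low levels in both libraries. Isg15 stood at 16.2 CPM in Cd36-/- and 12.6 CPM in fl/fl members, and Ifit1 at 1.62 CPM in Cd36-/- and 1.10 CPM in fl/fl members. The list's median was 0.33 in resting cells, 0.38 in mitotic cells and 0.07 in S-phase LPM.

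The programmes that divide peritoneal macrophages were less far apart. Of the 9 genes of the Folr2 programme compared, 8 were lower in Cd36-/- members, 5 with the interval below 0, with a median of -0.24. The shares over all genes were 49.8% and 7.32%. Folr2 stood at 112 CPM in Cd36-/- and 147 CPM in fl/fl members, a log2 ratio of -0.40 with an interval of -0.67 to -0.13. Selenop, a selenium carrier, stood at 286 CPM in Cd36-/- and 421 CPM in fl/fl members. Cbr2, a carbonyl reductase, was the exception, at 49.8 CPM in Cd36-/- and 33.0 CPM in fl/fl members, a log2 ratio of 0.59 with an interval of 0.11 to 1.09. Of the recruited monocyte genes 9 of 16 were higher, with a median of 0.03, and of the LPM identity genes 8 of 15, with a median of 0.09. Marco, a scavenger receptor of the LPM list, stood at 110 CPM in Cd36-/- and 65.4 CPM in fl/fl members, a log2 ratio of 0.75 with an interval of 0.41 to 1.09. Alox15 stood at 89.9 CPM in Cd36-/- and 118 CPM in fl/fl members, a log2 ratio of -0.39 with an interval of -0.69 to -0.09.

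Lipid genes showed no common direction. In the list of Cd36 and fatty acid handling 5 of 14 were higher in Cd36-/- members, with a median of -0.03. Plin2, which coats lipid droplets, stood at 192 CPM in Cd36-/- and 269 CPM in fl/fl members, a log2 ratio of -0.49 with an interval of -0.69 to -0.29. Lpl, lipoprotein lipase, stood at 562 CPM in Cd36-/- and 540 CPM in fl/fl members. Among cholesterol efflux genes 4 of 9 were higher, with a median of -0.23, a direction that turned after thinning. Apoe was the furthest apart of them, at a log2 ratio of 0.59 with an interval of 0.51 to 0.68, while the exporter Abca1 stood at 40.1 CPM in Cd36-/- and 51.1 CPM in fl/fl members.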

How the data were processed

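Per the labels' protocols, peritoneal cells of 2 groups were sequenced as 1 library each, from pools of 4 replicates, by 10x Genomics single-cell sequencing of 3' ends (v2 chemistry). Cell Ranger and the mm10 build are in the submitters' processing notes, and the file headers give software version 3.0.0. The values deposited by the authors are whole-number UMI counts, one for every gene in a barcode, with no normalization. The annotation release and further settings are not given in the sources used here. The matrices hold 31053 genes, with symbols from the files, and each barcode had at least 500 UMIs.

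Of 16543 Cd36-/- and 15537 fl/fl barcodes, 36 and 38 with under 200 genes and 509 and 773 over 10% mitochondrial UMIs were left out. The criteria have no doublet step. Scrublet, run through scanpy 1.11.5, marked 1034 and 768 cells, 3 and 2 of them members, and leaving these out was an alternative. Counts were summed per class and library. A ratio of CPM has an exact conditional binomial interval, a CPM an exact Poisson interval, a share a Clopper-Pearson interval, and differences combine the single intervals. Because each group was 1 library no test or p-value was computed, and a gene was counted by a 2-fold ratio at 20 CPM or more in 1 library. The computation was tested on simulated counts.

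Named were Cd36 and Lyz2, the 15 highest and 15 lowest genes by the interval bound nearest to 0 between libraries, the 12 highest and lowest between classes by the smaller of both libraries' ratios, and up to 6 genes of a list. Gate, mitochondrial, ribosomal protein, immunoglobulin, haemoglobin and sex-linked genes and unnamed gene models were left out of the rankings. A few further list members were named after their values were seen, and a few genes are not reported here. The members and the 37 lists, of 657 genes of which 1 is not in the matrices, were chosen with earlier results of these data known. Promoters came from the RefSeq tables of GRCm38.p6. Python 3.11.15, numpy 2.4.6, scipy 1.17.1, pandas 2.3.3 and matplotlib 3.10.9 were used. Alternatives covered scaling, thinning to 4000 UMIs, the CPM minimum, the fold, doublets, the mitochondrial limit and each gate. Leaving out members with Alox15 or Vsig4, with Cd209a or Flt3, with mitotic-set UMIs, or the highest cell of each gene, counting the Gata6 set before thinning, and leaving the replication set out of the lists, were chosen after seeing the data.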

Additional observations from a re-analysis of the deposited data

Results flagged for a closer look

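The genes below stood on opposite sides in members and in another class of macrophages, each with both counting intervals off 0. With 1 library per group none of these differences was tested between animals. Values are log2 ratios of Cd36-/- over fl/fl.

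Against resting Gata6-low macrophages, the MHC class II genes H2-Aa at 0.43, H2-Ab1 at 0.54 and H2-Eb1 at 0.51 were higher in Cd36-/- members, while resting cells stood at -0.09, -0.07 and -0.16. Cbr2 stood at 0.59 in members and -0.26 in resting cells, and S100a6, a calcium-binding protein, at 0.33 and -0.03. On the other side Alox15 was at -0.39 in members and 0.28 in resting cells, Insig1, a regulator of sterol synthesis, at -0.71 and 0.32, and Mpeg1, perforin-2, at -0.42 and 0.09. Ccl5, a chemokine of T and natural killer cells, was at -0.42 in members and 1.42 in resting cells. Its UMIs were concentrated, with 47.2% of those in Cd36-/- members and 32.4% of those in fl/fl members in 1 cell of each library, and resting cells held more natural killer transcripts, whose part was not tested.

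Against mitotic Gata6-low macrophages, Dut at 0.39, Lig1 at 0.31 and Rpa2, a subunit of the single-strand binding protein, at 0.43 were higher in Cd36-/- members, while mitotic cells stood at -0.24, -0.27 and -0.34. Alox15 was at -0.39 in members and 0.39 in mitotic cells, Insig1 at -0.71 and 0.89, Ccl5 at -0.42 and 1.55, and Ccl24, an eosinophil chemokine, at -0.52 and 0.24. Against S-phase LPM, Alox15 was at -0.39 in members and 0.31 in LPM, Ccl24 at -0.52 and 0.38, Ccl5 at -0.42 and 0.60, and Fabp4 at -0.90 and 0.21. Alox15 and Fabp4 are far lower in members than in LPM, at 89.9 and 27.1 CPM in Cd36-/- and 118 and 50.6 CPM in fl/fl members. Of 4394 genes compared in members and resting cells, 18 stood on opposite sides with both intervals off 0.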

How the results depend on the processing

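No paired analysis was possible because each group is 1 pooled library and no sample can be left out. Of 1064 alternative values 1003 stayed within the main value's interval, within 1.5 times a count or, for list medians, within a range of bounds. That range ran from the median lower to the median upper bound of the list's single genes. It is not an interval of the median. Within it stayed 474 list values, although the nucleotide synthesis median, for 1, ran from 0.0087 to 0.45. The sign changed for 34 values, 31 of list medians and 3 of the S-phase share, of which 7 belong to list medians at least 0.1 from 0. For the named genes, 23 values of 14 genes moved, 470 stayed and 0 changed sign. Across alternatives the list median ran from 0.35 to 0.60 for MHC class II, from -0.66 to -0.37 for glucocorticoid-induced genes, from 0.15 to 0.39 for interferon-induced genes and from 0.08 to 0.32 for licensing. Another scaling, by the median of ratios over 4226 genes, shifted ratios by 0.0038.

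The causes of the changes below were not tested. With the replication criterion at 5 per 10000 UMIs, the difference in S-phase share was 1.13 percentage points of Gata6-low macrophages and 0.566 of all cells. After thinning, it was -0.67 with the Gata6 set counted after thinning and 0.0896 with it counted before. The number of Cd36-/- members was 80 with a criterion of 8 UMIs, 286 with 5 per 10000, 328 after thinning and 279 with up to 1 UMI of the Gata6 set, and of fl/fl members 79 with 8 UMIs, 273 after thinning and 234 with up to 1 UMI of the Gata6 set. The 53 genes at least 2-fold apart became 171 at 10 CPM, 13 at 50 CPM, 320 at 1.5-fold, 334 after thinning, 155 with a criterion of 8, 19 with up to 1 UMI of the Gata6 set and 208 without members that had mitotic-set UMIs. For members over resting cells the 166 genes became 266 at 10 CPM, 67 at 50 CPM and 377 at 1.5-fold, over mitotic cells the 181 became 99 at 50 CPM and 335 at 1.5-fold, and over S-phase LPM the 28 became 44 at 10 CPM and 70 at 1.5-fold. The cholesterol efflux median of -0.23 was 0.107 after thinning. The B cell median of 0.11 was -0.0348 as a mean of the cells' shares, -0.103 without Scrublet-marked cells, -0.0762 with a criterion of 8 and -0.0329 with up to 1 UMI of the Gata6 set, and the neutrophil median of -0.49 was 0.824 after thinning and 0.228 with a criterion of 8. With 1847272 Cd36-/- and 1818797 fl/fl UMIs in members, genes near 20 CPM rest on few UMIs.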

Other observations

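Lists outside the cycle and the immune programmes gave small differences between Cd36-/- and fl/fl members. Of all genes compared, 50.2% were higher in Cd36-/- members, 8.38% with the interval above 0. Another 49.8% were lower, 7.32% with the interval below 0. Of the 30 nuclear genes of the respiratory chain compared, 21 were higher in Cd36-/- members, 11 with the counting interval above 0, with a median log2 ratio of 0.09. Ndufb8, of complex I, stood at 447 CPM in Cd36-/- and 345 CPM in fl/fl members, and Atp5g1, of the ATP synthase, at 553 CPM for Cd36-/- and 445 CPM for fl/fl members. Of the 12 mitochondrially encoded genes, 11 were lower, 10 with the interval below 0, with a median of -0.17, and mt-Nd3 stood at 226 CPM in Cd36-/- and 333 CPM in fl/fl members. The median mitochondrial share per member was 2.21% for Cd36-/- and 2.38% for fl/fl cells.

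Protein folding genes were lower. Of the cytosolic chaperones 11 of 16 were lower in Cd36-/- members, 6 with the interval below 0, with a median of -0.22, and Hspa8 stood at 808 CPM in Cd36-/- and 1039 CPM in fl/fl members. Of the unfolded protein response genes 13 of 18 were lower, 4 with the interval below 0, with a median of -0.16, Hspa5 standing at 190 CPM for Cd36-/- and 253 CPM for fl/fl members. Both directions were shared by the other classes. The chaperone median was -0.23 in resting cells, -0.23 in mitotic cells and -0.15 in S-phase LPM. The unfolded protein response median was -0.26 in resting cells, -0.16 in mitotic cells and -0.18 in S-phase LPM. Of the lysosomal genes 10 of 16 were lower, with a median of -0.03, and Ctsb, a cathepsin, stood at 1057 CPM for Cd36-/- and 1326 CPM for fl/fl members. Medians were -0.14 for efferocytosis, where Mertk, a receptor for dying cells, stood at 47.6 CPM in Cd36-/- and 64.3 CPM in fl/fl members, -0.10 for alternative activation, 0.04 for inflammatory genes, -0.02 for glycolysis, 0.05 for ribosome biogenesis, 0.01 for sterol synthesis, -0.06 for the macrophage core and -0.02 for growth factor receptors and transcription factors. In the last list Irf8, of the monocyte lineage, stood at 69.3 CPM for Cd36-/- and 44.0 CPM for fl/fl members and Bhlhe40, a transcription factor tied to macrophage proliferation, at 78.0 CPM for Cd36-/- and 52.8 CPM for fl/fl members. For G2 and mitosis the median was -0.10 over 8 genes, and of the 19 replicative histones 1 was compared.

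Of the marker lists of other cells, the T cell list summed to 33.0 CPM in Cd36-/- and 41.8 CPM in fl/fl members, mast cell and eosinophil markers to 16.2 CPM for Cd36-/- and 8.80 CPM for fl/fl members, neutrophil markers to 97.4 CPM for Cd36-/- and 97.9 CPM for fl/fl members and erythroid markers to 2.71 CPM for Cd36-/- and 1.10 CPM for fl/fl members. B cell markers, with a median of 0.11 over 5 genes, summed to 517 CPM for Cd36-/- and 489 CPM for fl/fl members.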
